A study of Homo sapiens with 28 samples.

Results

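The APOBEC3 cluster is a row of 7 cytidine deaminase genes on chromosome 22: APOBEC3A, APOBEC3B, APOBEC3C, APOBEC3D, APOBEC3F, APOBEC3G and APOBEC3H. The members were taken by symbol from RefSeq's GRCh38.p14 gene table, and they are 7 of 19821 protein-coding genes on chromosomes 1 to 22 and X. Every peak that touched their span plus 20 kb on each side (chromosome 22, 38937609 to 39124067, 186.5 kb) was collected from 8 peak lists, which gave 32 of 349107 peaks. The cluster was chosen by its H3K27ac values: a peak at APOBEC3C and APOBEC3D was listed in hypoxia and not in normoxia. The H3K27ac contrast is therefore given as a description and supports nothing.

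APOBEC3 enzymes turn cytosine into uracil in single-stranded DNA. They restrict retroviruses and retrotransposons, many of them are induced by interferon, and they are best known from blood cells. In breast and other epithelial cancers their activity, chiefly that of APOBEC3A and APOBEC3B, is known to leave clustered C-to-T and C-to-G mutations. The genes arose by tandem duplication and stay alike in sequence, so short reads from one member can match another. The sources used here do not say how such reads were treated, and each assignment of a peak to one member carries that uncertainty.

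The data come from chromatin immunoprecipitation followed by sequencing in the T47D cell line, which is of luminal breast cancer origin. Normoxic and hypoxic cells were each immunoprecipitated for ZHX2, a zinc finger and homeobox protein, for CTCF, which binds at chromatin loop anchors, and for H3K27ac, a histone mark of active promoters and enhancers. Hypoxic cells carrying Flag-tagged ZHX2, wild type (WT) or a mutant named PA, were immunoprecipitated for Flag. Each of these 8 groups held 2 samples and had 1 peak list, so no value has a replicate error, no test was run, and the read depth is unknown. The sources used here do not state the oxygen level, the hours in hypoxia, what PA changes in the protein, the promoter behind the Flag construct or whether those cells kept their own ZHX2.

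The labelled cell type was checked against marker genes, where 64.4% of protein-coding genes held an H3K27ac peak within 1 kb of an end in normoxia and 65.2% in hypoxia. All 8 luminal marker genes held a hypoxia H3K27ac peak within 1 kb of an annotated end and 7 of 8, all but TFF1, held one in normoxia. Their hypoxia folds ran from 3.22 at TFF1 to 46.3 at GATA3 and 54.2 at FOXA1. Of 4 basal or myoepithelial markers ACTA2 alone held one in either list, and of 10 lymphocyte and myeloid markers CD3E and CD8A did, with no H3K27ac peak at the other 8, PTPRC and CD4 among them. The hypoxia folds were 14.5 at ACTA2, 13.8 at CD3E and 3.76 at CD8A, so each of these stood above TFF1. Fold here and below is the authors' fold enrichment of a peak over background. It ranks peaks within one list and does not measure a change between lists.

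In the text a start is the lower annotated coordinate of a member, since the gene table gives no strand and the members are known to lie in one orientation. RefSeq's promoter table held 1 of the 7 members, APOBEC3H, on the plus strand. The 250 bases before its start are shown because a hypoxia-only H3K27ac peak and a WT-only Flag peak lay just inside this gene (chr22:39096994-39097243, GRCh38.p14, plus strand). Capitals mark a 23-base stretch that ends 3 bp before the start and occurs again, letter for letter, at bases 2 to 24 of the transcript.

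APOBEC3H: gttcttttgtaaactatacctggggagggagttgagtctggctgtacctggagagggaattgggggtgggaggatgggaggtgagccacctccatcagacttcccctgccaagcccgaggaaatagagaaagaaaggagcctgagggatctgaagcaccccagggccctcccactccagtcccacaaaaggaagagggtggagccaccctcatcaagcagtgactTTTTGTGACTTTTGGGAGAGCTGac

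Across the table's whole window, which also holds the first 50 bases of the transcript, 5 motifs were searched on both strands and 0 matches were found. They were ACGTG and GCGTG, the core of the hypoxia response element, GGNGGCAG from the CTCF site, GAAANNGAA from the interferon response element and GGANTTNCC from the NF-kappaB site. Among 34683 promoter windows of the same length these letters occurred in 21.4%, 36.5%, 16.7%, 8.10% and 4.31%. A window without these letters says nothing about binding of the factor.

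The 8 lists marked the members unevenly. H3K27ac lay at the starts of APOBEC3B, APOBEC3F and APOBEC3G in both conditions, and in hypoxia also beside the starts of APOBEC3D and APOBEC3H. ZHX2 was listed at APOBEC3B and APOBEC3F in hypoxia and nowhere in the cluster in normoxia. CTCF held 8 sites in both conditions, mostly between the genes. APOBEC3A and APOBEC3C had no peak of any list within 3 kb of their starts.

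**Figure D1:**
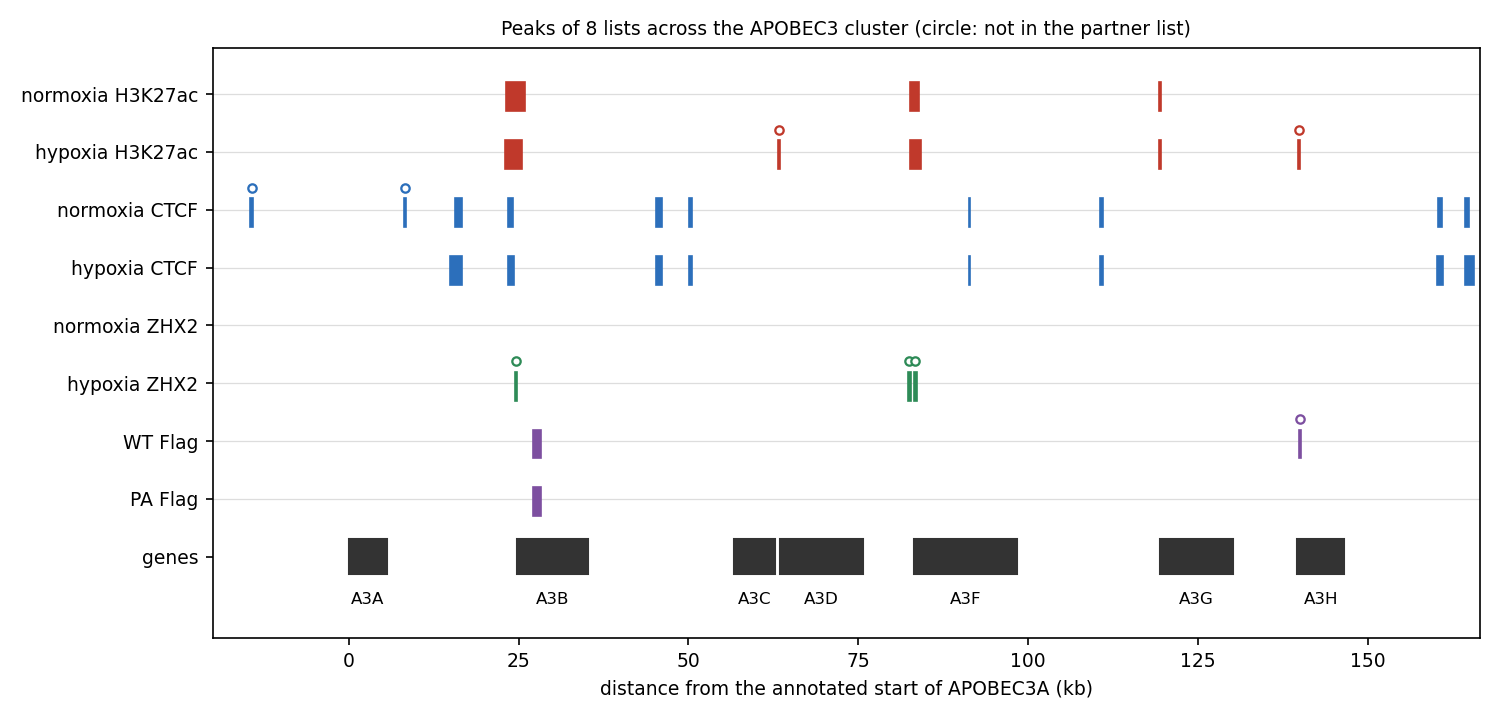
Peaks of the 8 lists across the cluster, as distance in kb from the start of APOBEC3A, with the 7 genes as dark boxes (A3 stands for APOBEC3 in the gene labels). An open circle above a peak marks that it overlaps no peak of the partner list: 2 H3K27ac and 3 ZHX2 peaks in hypoxia, 2 CTCF peaks in normoxia and 1 WT Flag peak carry one.

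APOBEC3B and APOBEC3F encode enzymes with a pair of deaminase domains, the first mainly nuclear and the second a cytoplasmic restriction factor of retroviruses. They held the widest H3K27ac peaks of the cluster. The APOBEC3B peak ran from 38980799 to 38983562 in normoxia (2764 bp, fold 10.3) and from 38980560 to 38983112 in hypoxia (2553 bp, fold 10.5). The APOBEC3F peak ran from 39040252 to 39041541 in normoxia (1290 bp, fold 9.82) and from 39040183 to 39041796 in hypoxia (1614 bp, fold 10.8). All 4 of these peaks covered the start of their gene. They ranked above 70.0 to 71.4% of the normoxia list and above 77.0 to 78.0% of the hypoxia list.

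ZHX2 peaks in hypoxia lay on these same H3K27ac regions. Of all hypoxia H3K27ac peaks shared with normoxia, 42.5% overlapped a hypoxia ZHX2 peak, so such overlap is common. At APOBEC3B the ZHX2 peak (38982120 to 38982388, fold 4.26, −log10 q 8.53) had its summit 74 bp before the start and ranked above 76.8% of the hypoxia ZHX2 list. At APOBEC3F there were 2 ZHX2 peaks, 39039878 to 39040299 and 39040785 to 39041241, both with a fold of 3.55 and a −log10 q of 5.41. Their summits lay 0.818 kb before and 0.033 kb after the start, and they ranked above 58.4% of the list. The second lay whole on H3K27ac of both conditions, while the first overlapped the hypoxia H3K27ac peak by 117 bp and the normoxia one by 48 bp.

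The normoxia ZHX2 list had 0 peaks in the cluster, and its nearest peaks lay 47.4 kb beyond the right edge of the collected region and 64.4 kb beyond the left edge. The 3 ZHX2 peaks were thus all hypoxia-only, against 72.6% of all hypoxia ZHX2 peaks, so the share is near that of the whole list. With 0 normoxia ZHX2 peaks there is no count to set against the 37.4% of all normoxia ZHX2 peaks that are normoxia-only. When the longer hypoxia list was reduced to the length of the normoxia list by score, 1 of the 3 was left. At gene level 2 of 7 members held a ZHX2 peak within 1 kb of an end in hypoxia and 0 of 7 in normoxia, against 56.3% and 29.7% of protein-coding genes.

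**Figure D2:**
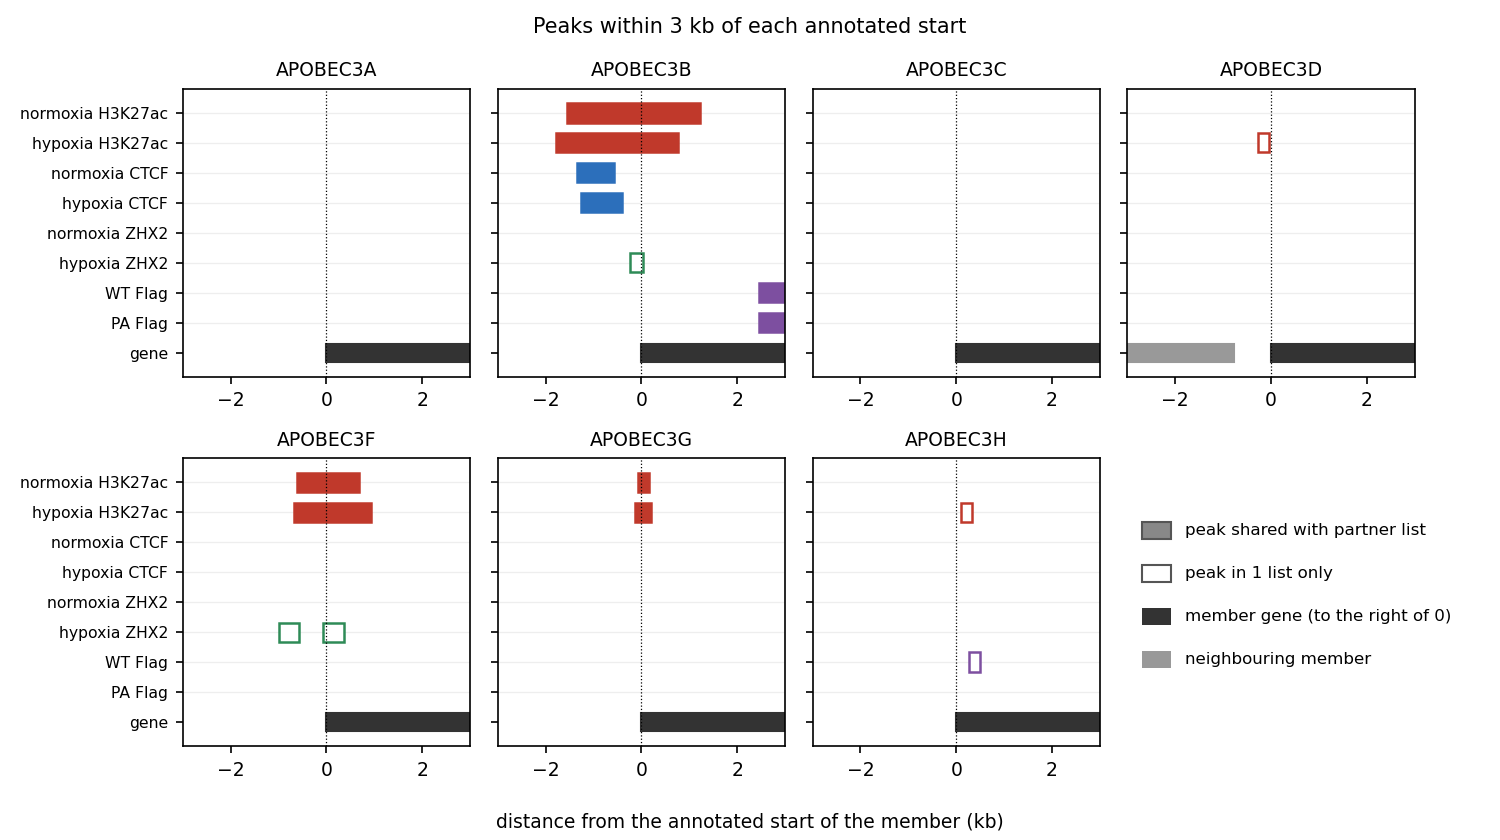
Peaks within 3 kb of the start of each member, shown as distance from that start in kb, with the member's gene dark and a neighbouring member grey. APOBEC3B and APOBEC3F carry H3K27ac in both conditions with ZHX2 in hypoxia, APOBEC3G carries H3K27ac alone, and the panels of APOBEC3A and APOBEC3C are empty.

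APOBEC3G, the restriction factor that is the classic target of the HIV protein Vif, had a short H3K27ac peak over its start. It spanned 39076930 to 39077175 in normoxia (246 bp, fold 3.99) and 39076881 to 39077210 in hypoxia (330 bp, fold 7.42). The normoxia peak ranked above 38.6% of its list and the hypoxia peak above 67.4% of its own. The lists were called separately and have no replicate values, so whether the level differed was not tested. No CTCF, ZHX2 or Flag peak overlapped this region, and the nearest hypoxia ZHX2 peak was 35.6 kb away, at APOBEC3F. Of hypoxia H3K27ac peaks shared with normoxia, 44.6% overlapped hypoxia CTCF, 42.5% hypoxia ZHX2, 43.7% WT Flag and 31.7% PA Flag peaks. The median width of these shared peaks was 1673 bp, so the shares are not matched to the 330 bp of the APOBEC3G peak.

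The peak that singled out the cluster lies between APOBEC3C, which has one deaminase domain, and APOBEC3D, which has a pair and restricts retroviruses. It was listed in hypoxia at 39020845 to 39021087 (243 bp, fold 5.65, −log10 q 22.2). The genes are 774 bp apart, and the peak began 493 bp after the end of APOBEC3C and stopped 40 bp before the start of APOBEC3D. It lies in neither gene, and it was 6.59 kb from the start of APOBEC3C. The nearest normoxia H3K27ac peak was 19.2 kb away, at APOBEC3F. No peak of the CTCF, ZHX2 or Flag lists overlapped it: the nearest hypoxia CTCF peak was 12.8 kb away, the nearest hypoxia ZHX2 peak 18.8 kb and the nearest Flag peak, in the WT and PA lists alike, 34.9 kb. Of all hypoxia-only H3K27ac peaks, 18.5% overlapped hypoxia CTCF, 5.66% hypoxia ZHX2, 8.11% WT Flag and 3.44% PA Flag peaks. The lack of each is thus common in this class.

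Among the 9041 hypoxia-only H3K27ac peaks of the genome this one ranked above 99.4% by fold, and 50 of them, itself included, had a fold at least as high. Their median fold was 2.93 and their 95th percentile 4.04. Against shared peaks of the hypoxia list it was of middle rank, above 49.8%. Of 652 hypoxia-only peaks near an end of a protein-coding gene it was the fifth by fold, after those at TH (8.25), GH1 (7.19), VLDLR (6.77) and MAD2L2 (5.86), and just ahead of DMRT1 (5.58).

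**Figure D3:**
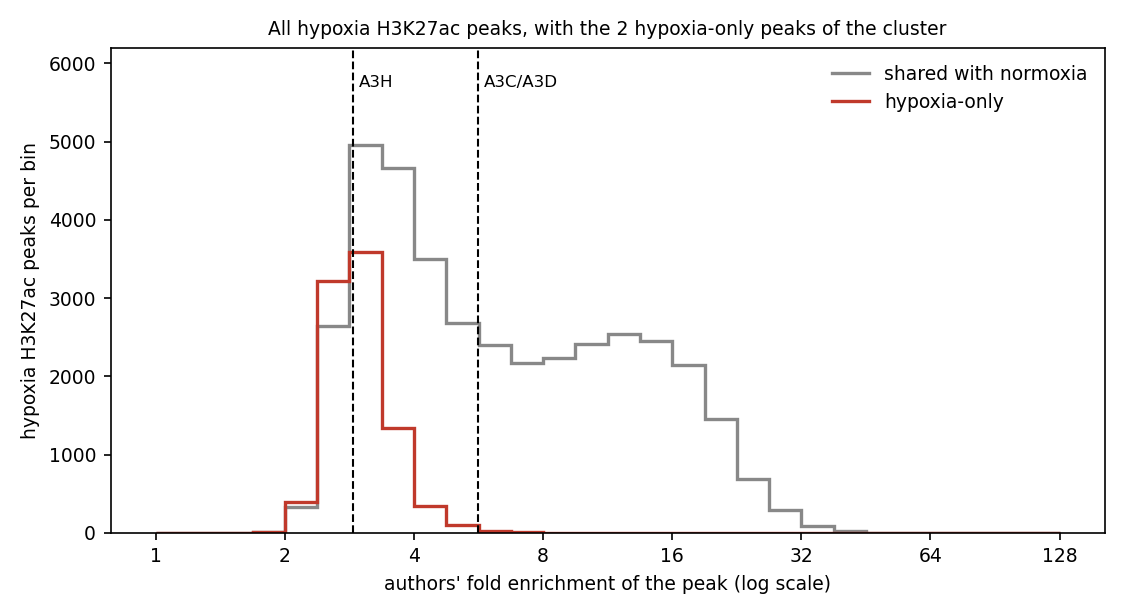
Number of hypoxia H3K27ac peaks by the authors' fold enrichment (log axis), for peaks shared with normoxia in grey and hypoxia-only peaks in red. Dashed lines mark the 2 hypoxia-only peaks of the cluster: that at APOBEC3H (fold 2.88) lies in the bulk of the hypoxia-only peaks and that between APOBEC3C and APOBEC3D (fold 5.65) beyond their 95th percentile of 4.04.

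APOBEC3H, a single-domain enzyme known for common inherited variants that differ in stability, held the other hypoxia-only H3K27ac peak. It spanned 39097353 to 39097580 (228 bp) and began 109 bp after the start, downstream of the bases printed above. Its fold was 2.88 and its −log10 q 4.78, while the lowest −log10 q in this list was 3.47. It ranked above 16.2% of all hypoxia H3K27ac peaks and above 45.2% of the hypoxia-only ones. At a −log10 q of at least 5 it was no longer listed, and 1 hypoxia-only H3K27ac peak was left in the cluster, that at APOBEC3D.

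A Flag peak lay on this H3K27ac peak in the WT list and not in the PA list. It spanned 39097515 to 39097749 (235 bp), began 271 bp after the start of APOBEC3H and overlapped the H3K27ac peak by 66 bp. Of all hypoxia-only H3K27ac peaks, 8.11% overlapped a WT Flag peak, against 43.7% of shared ones. Their median widths were 450 and 1673 bp, so these shares are not matched for width. Endogenous ZHX2 had no peak here, with the nearest one in hypoxia 47.8 kb away, beyond the cluster. A hypoxia ZHX2 peak overlapped 5.66% of all hypoxia-only H3K27ac peaks.

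The other Flag peak of the cluster was inside APOBEC3B, 2.45 kb after its start (38984795 to 38985956, 1162 bp), and was in both the WT and the PA list. It lay 2.41 kb from the endogenous ZHX2 peak at the APOBEC3B start and 1.68 kb from the hypoxia H3K27ac peak, so it overlapped neither. WT and PA gave the same coordinates to the base. This held for all 15163 PA peaks that overlapped a WT peak, so identical edges carry no information on this site. Of the 2 WT Flag peaks 1 was WT-only, against 51.5% of the WT list, and the 1 PA peak was shared, where 5.34% of the PA list is PA-only. Within 1 kb of an end, APOBEC3H alone held a WT Flag peak and no member held a PA one, against 58.5% and 50.2% of protein-coding genes.

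Counted over the cluster, 2 of 5 hypoxia H3K27ac peaks were hypoxia-only, where 19.4% are in the whole list, and 0 of 3 normoxia peaks were normoxia-only, where 10.9% are. The rule used this contrast, so nothing is read from these counts. H3K27ac covered 4.30 kb of the cluster in normoxia (2.31%) and 4.97 kb in hypoxia (2.66%). Within 1 kb of an end, 3 of 7 members held an H3K27ac peak in normoxia (APOBEC3B, APOBEC3F and APOBEC3G), against 64.4% of protein-coding genes. In hypoxia 6 of 7 did, against 65.2%, and APOBEC3A was the member without one. APOBEC3C and APOBEC3D count through the same peak. These members and APOBEC3H held H3K27ac in hypoxia alone, a class of 1.45% of protein-coding genes.

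CTCF divided the cluster at the same 8 sites in both conditions. From left to right the sites lay at 2 positions between APOBEC3A and APOBEC3B, 2 between APOBEC3B and APOBEC3C, 1 inside APOBEC3F, 1 between APOBEC3F and APOBEC3G and 2 beyond APOBEC3H. At each site the summits of the normoxia and hypoxia peaks were 2 to 56 bp apart. In hypoxia APOBEC3B was the only member between neighbouring CTCF peaks 20.9 kb apart, and the noncoding gene APOBEC3B-AS1 lay there too. APOBEC3C, APOBEC3D and the start of APOBEC3F shared an interval of 40.7 kb, and APOBEC3G and APOBEC3H one of 49.3 kb.

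The 3 highest CTCF folds of each condition were at the same sites. They were the site 8.57 kb before APOBEC3B by its hypoxia summit (129 in normoxia, 97.5 in hypoxia), the site about 11 kb before APOBEC3C (127 and 82.9) and the outermost site right of APOBEC3H (104 and 86.7). The first had the highest fold in both lists, and the other two stood in opposite order in the 2 lists. These 3 sites ranked above 82.7 to 86.9% of the normoxia list and 76.9 to 80.5% of the hypoxia list. The weakest shared site was inside APOBEC3F (39048828 to 39049069 in hypoxia), with 11.0 and 6.35. At APOBEC3B a CTCF peak lay within the H3K27ac region, with its summit 0.877 kb before the start in hypoxia (fold 44.9) and 0.880 kb in normoxia (fold 65.1). It came within 176 bp of the ZHX2 peak there without overlapping it.

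The normoxia CTCF list had 2 further peaks, and both flanked APOBEC3A, a single-domain deaminase strongly induced by interferon in myeloid cells. One lay 14.1 kb before its start (38943153 to 38943505, fold 10.3, above 35.2% of the list). The other lay 2.56 kb after its end (38965741 to 38965993, fold 6.35, above 18.5%). In normoxia APOBEC3A thus lay between these peaks, and in hypoxia its nearest CTCF peak was 14.9 kb from the start. These 2 of 10 peaks compare with 17.7% normoxia-only peaks in the whole normoxia CTCF list, and 0 of 8 hypoxia peaks with 6.96% hypoxia-only ones, so both counts are near the background. APOBEC3B alone held a CTCF peak within 1 kb of an end in either list, against 61.9% of protein-coding genes in normoxia and 59.6% in hypoxia.

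**Figure D4:**
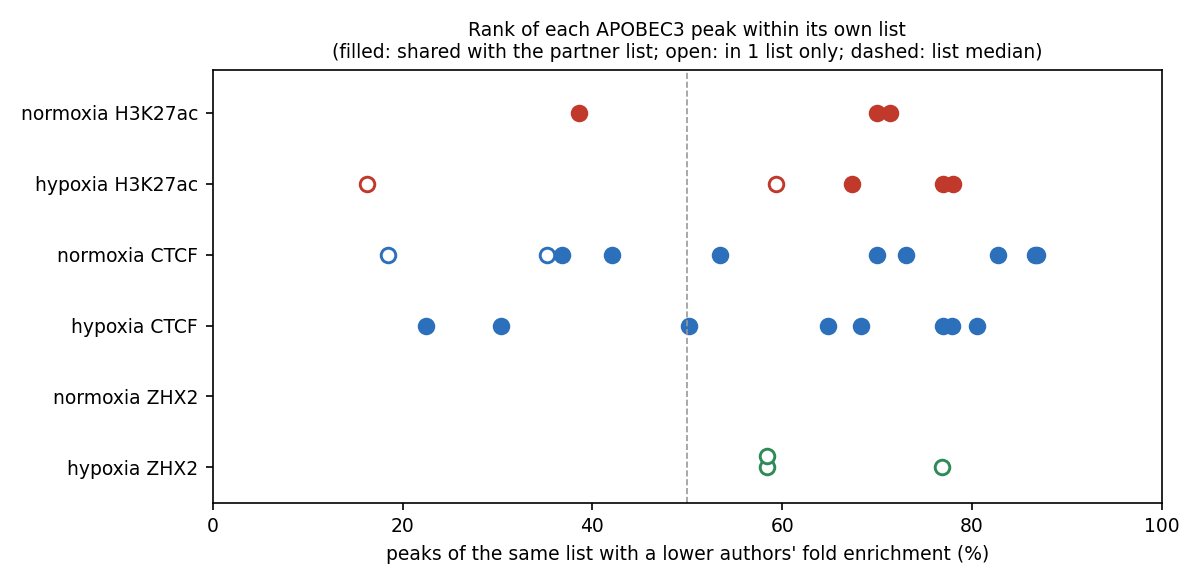
Share of peaks in the same list with a lower authors' fold (%), for each peak of the cluster in the 6 lists that carry a fold, with open circles for peaks in 1 list only. The 2 open normoxia CTCF circles (18.5 and 35.2%) and the lower open H3K27ac circle (16.2%) lie left of the dashed list median, and the other open H3K27ac circle is at 59.4%.

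The members differed in their pattern over the 8 lists. APOBEC3A, with no peak near an end in any list, shared that pattern with 21.9% of protein-coding genes. APOBEC3B held peaks in 5 lists, APOBEC3F in 3, APOBEC3G and APOBEC3H in 2 each, and APOBEC3C and APOBEC3D in 1. The pattern of APOBEC3C and APOBEC3D, hypoxia H3K27ac and nothing else, occurred at 76 genes including themselves. Of the other 74, the closest in hypoxia H3K27ac fold were FAM217A (5.90), FGF2, a fibroblast growth factor (4.85), and ZNF358 (6.56), each alike in all 8 lists. Likeness here is in the presence of peaks and 1 fold, in 8 lists of 1 cell line.

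The nearest peak outside the collected region was a WT Flag peak 0.641 kb beyond the left edge, and the nearest inside was the hypoxia CTCF peak that stops 0.846 kb before the right edge. The neighbouring genes CBX6 and CBX7 encode chromobox proteins of Polycomb complexes. Both held H3K27ac in both conditions, hypoxia ZHX2 and WT Flag peaks within 1 kb of an end, and CBX6 also held normoxia ZHX2 and CTCF in both conditions.

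Related genes outside the cluster were described from 2 lists. Of 11 genes of the wider deaminase family and of uracil repair, 7 held H3K27ac in both conditions (63.6%, against 64.4% of protein-coding genes in normoxia and 65.2% in hypoxia). They were REV1, a translesion polymerase (fold 21.4 in hypoxia), HMCES, which shields abasic sites (16.1), the thymine glycosylases TDG (15.5) and MBD4 (12.1), and UNG, SMUG1 and APEX1. The family members APOBEC1, APOBEC2 and APOBEC4, known from intestine, muscle and testis, held no peak in any of the 8 lists. ZHX2 lay at 2 of the 11 in normoxia (18.2%, against 29.7% of protein-coding genes) and 6 in hypoxia (54.5%, against 56.3%). H3K27ac was in hypoxia alone at 0 of the 11, against 1.45%.

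Of 14 interferon and antiviral genes, 12 held H3K27ac in normoxia (85.7%, against 64.4% of protein-coding genes) and 13 in hypoxia (92.9%, against 65.2%). The highest folds in hypoxia were at BST2, the tethering factor of budding viruses (17.8), IRF1, a transcription factor of the interferon response (17.3), and MX1, a GTPase that blocks viruses (15.7). Only OAS1, a sensor of double-stranded RNA, held H3K27ac in hypoxia alone among the 14, with a fold of 2.85, and 1 of 14 compares with 1.45% of protein-coding genes. ZHX2 lay at 1 of the 14 in normoxia (7.14%, against 29.7%) and 7 in hypoxia (50.0%, against 56.3%).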

How the data were processed

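ChIP-seq peak lists of T47D cells were analysed, 1 list for each of 8 immunoprecipitated groups of 2 samples. The 12 samples without antibody, 4 of them titled Flag, were not analysed here. The submitters' processing notes name MACS2, Bowtie2, cutadapt and the build GRCh38 (hg38). Versions, pooling, use of inputs and depth are not given there. Per peak, the authors deposited a score, a fold enrichment (ratio) and a −log10 q-value. These were used to rank or filter peaks within a list. Flag lists give positions alone. The lowest deposited −log10 q was 3.49 and 3.47 for H3K27ac (normoxia, hypoxia), 5.00 and 5.09 for CTCF and 1.30 for both ZHX2 lists.

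Chromosomes 1 to 22 and X were used. Peaks were shared with the partner list (the other condition, or the other Flag construct) at an overlap of 1 bp or more, and otherwise called hypoxia-only, normoxia-only, WT-only or PA-only. A gene held a peak within 1 kb of either annotated end in RefSeq's GRCh38.p14 table, without scaffold entries. Exon structure was not used here. The members and the lists were chosen with earlier results of these data known. The text names all members, all peaks that a result turns on, the nearest genes on each side, up to 4 genes per list by hypoxia H3K27ac fold, and the 3 genes closest in pattern. TH, GH1, VLDLR, MAD2L2, DMRT1, OAS1, the other uracil repair genes, the marker genes and the genes of the closing observations were named after their values were seen. Single values of some list genes are not reported here. Overlap counting was tested on simulated data. Python 3.11.15 was used.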

Additional observations from a re-analysis of the deposited data

How the results depend on the processing

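Over 12 counts, 61 alternatives were run. In 53 the count stayed within 1.5 times its value, and in 8 it moved. Some of the 53 could not move and say nothing on stability. Every CTCF peak of the cluster had a −log10 q of at least 26.6, so a limit of 5 removed none. With 0 normoxia ZHX2 peaks in the cluster, no alternative that was run could change the normoxia-only ZHX2 count. The 50 kb flank could not either, since the nearest such peak lay 47.4 kb beyond a region that already held 20 kb of flank. Hypoxia-only H3K27ac peaks went from 2 to 1 at a −log10 q of at least 5 in both lists, with that limit on the hypoxia list only (chosen after seeing the data), and with lists of equal length. Hypoxia-only ZHX2 peaks went from 3 to 1 with lists of equal length and to 5 with a 50 kb flank. With that flank WT-only Flag peaks went from 1 to 6 and PA-only ones from 0 to 1. Without a flank, normoxia-only CTCF peaks went from 2 to 1. The wider or narrower flank takes in or leaves out peaks, and the cause of the other moves is the smaller number of peaks kept. Members with hypoxia H3K27ac were 4 to 6 over the alternatives, those in normoxia 3, those with hypoxia ZHX2 2. The 1 member with hypoxia CTCF was APOBEC3F in place of APOBEC3B when any overlap with the gene was counted, and the count from the lower-coordinate end alone (chosen after seeing the data) left out APOBEC3C for H3K27ac. No paired analysis was possible because each group has 1 list and no result comes from a test, and no replicate could be left out. Depth is unknown, so an unlisted peak is not an absent one.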

Other observations

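The pattern of APOBEC3H, hypoxia H3K27ac with a WT Flag peak and no peak of the other 6 lists near an end, occurred at 10 protein-coding genes (0.0505%). CA9, the carbonic anhydrase used as a marker of hypoxia, was one of the other 9, with a hypoxia H3K27ac fold of 3.50. The others were CDK5RAP3, GPC4, GRK1, HGFAC, KCNAB3, MFAP4, RAB9B and TAC3, with folds of 2.68 (TAC3) to 15.8 (KCNAB3). APOBEC3H has this pattern through a peak with a −log10 q of 4.78, which was lost at a limit of 5. Whether these genes share anything beyond the listed peaks was not tested.

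The hypoxia-only peak between APOBEC3C and APOBEC3D was both short and high. Of 2324 hypoxia H3K27ac peaks no wider than its 243 bp, 69.1% were hypoxia-only and 10 had a fold at least as high. The APOBEC3G peak was of the same kind: of 4886 hypoxia peaks no wider than 330 bp, 23 reached its fold of 7.42, and 7 of the 23 were hypoxia-only. Of the 50 hypoxia-only peaks with a fold at or above that of the APOBEC3C and APOBEC3D peak, 11 lay inside 1 gene, NAT10, and 5 lay near an end of a protein-coding gene.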
